A study of Drosophila melanogaster with 21 samples.

Results

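Depletion of Not1 in DL1 cells, an established Drosophila melanogaster cell line, was compared with a control knockdown over the 17555 genes that carry a FlyBase ID in the RNAi table, in 6 of the 21 samples of the series. The 3 Not1 RNAi samples received double-stranded RNA against Not1. The 3 LacZ RNAi samples received double-stranded RNA against LacZ, a bacterial gene that fly cells lack, as the non-targeting control. Both groups were wild type in genotype. Pop2 RNAi and Pum RNAi, with 3 samples each, shared these controls, and wild-type (WT) cells of a separate knockout experiment gave baseline levels. Cells were bathed without serum in 20 µg of double-stranded RNA for 60 min and harvested after 48 h. Poly(A) RNA was sequenced by a random-priming method that ends cDNAs with azido-nucleotides in place of fragmentation. The labels call the samples of a group biological replicates and do not say whether they came from separate cultures on separate days, so p-values measure the spread between these samples.

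Not1 is the scaffold on which the CCR4-NOT complex is built. The deadenylase subunits Pop2 and Ccr4 (twin in flies) shorten poly(A) tails, which in most eukaryotic mRNAs precedes removal of the cap and decay of the body. RNA-binding repressors such as Pumilio and the microRNA effector GW182 (gw) bring the complex to their targets. The comparison asked which mRNAs differ in level when the scaffold is depleted.

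Values below are of 3 kinds. Group means of normalized counts, log2 fold changes (Not1 RNAi over LacZ RNAi) with their standard error (SE) and adjusted p-values are those of the authors' deposited table, and a gene is said to have risen or fallen where that adjusted p is below 0.05. A fold is 2 to the power of the fitted value and can differ from the ratio of the group means. Values of single libraries are whole reads recovered from the group means and scaled by the authors' size factors, with libraries lettered A to C from the deepest to the shallowest in each group. Recovered reads, which cover 65.2% of the normalized counts of Not1 RNAi and 69.7% of those of LacZ RNAi, numbered 6222096, 5465899 and 1557787 for Not1 RNAi and 4975588, 4356700 and 2744265 for LacZ RNAi. The most abundant mRNAs could not be resolved by library.

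Library C stood apart in both groups. Over the 5815 genes whose mean reached 50, its log2 values correlated with those of A and B at 0.924 in Not1 RNAi, where A and B correlated at 0.994, and at 0.904 and 0.902 in LacZ RNAi, where A and B correlated at 0.986. Cytosolic ribosomal protein genes lay 1.367 (log2, median) above the mean of A and B in Not1 RNAi library C and 1.48 above it in LacZ RNAi library C. Results that rest on these libraries are therefore also given without both, from limma on the recovered reads. Counts were scaled per library, so each difference is relative to other genes, and a common rise or fall of all mRNAs cannot be seen. RNA was selected by its poly(A) tail, whose length deadenylation sets, and the part of tail length in these counts was not tested. In RNA from whole wells, fewer cells of a type and less RNA per cell cannot be told apart.

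The targeted gene was low in each Not1 RNAi library. Not1 (FBgn0085436, chromosome 2R, 9566146 to 9579007 in dm6) had 1718, 1702 and 1824 normalized counts in Not1 RNAi libraries A, B and C. In the authors' deposited table its mean was 1748 in Not1 RNAi and 16829.7 in LacZ RNAi, a fall of 9.64-fold (log2 -3.27 ± 0.18, adjusted p = 4.05e-72). The 3 depleted libraries differed little from each other, library C included, and the LacZ RNAi libraries were too abundant in this mRNA to be resolved.

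Of the other 8 subunits of CCR4-NOT tested, 1 rose, 1 fell and 6 were not called. Rga, the fly Not2, which docks on Not1, had 3350.5, 3378 and 7256 normalized counts in Not1 RNAi libraries A, B and C, against 983, 938 and 1686 in the LacZ RNAi libraries, so that every depleted library lay above every control library. It rose 3.88-fold (log2 1.95 ± 0.32, adjusted p = 6.26e-09) by the authors' deposited table. Rcd-1, the subunit called CNOT9 in humans, fell by 0.38 ± 0.13 on the log2 scale (adjusted p = 0.0123) by the authors' deposited table, with 999, 1052 and 873 in Not1 RNAi against 1306, 1427 and 1078 in LacZ RNAi, and its groups did not overlap either. The deadenylase gene Pop2 had 683, 707 and 297 in Not1 RNAi against 609, 642 and 477 in LacZ RNAi, and the groups overlapped (log2 -0.02 ± 0.29, adjusted p = 0.97 by the authors' deposited table). For twin, the second deadenylase, the authors' deposited table gave log2 0.44 ± 0.25 (adjusted p = 0.138). Not3, Cnot4, Not10 and Not11 had log2 values of -0.15, -0.07, -0.25 and 0.40 in the authors' deposited table, none of them past the test. Without libraries C, limma called 3 of 8 subunits higher and 1 lower, Not1 not being among them: beside Rga and Rcd-1, Not11 was called at 0.73 (adjusted p = 2.35e-05) and twin at 0.27 (adjusted p = 0.0188).

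A large share of the measured transcriptome moved, in both directions. Of 9051 genes tested, 2328 rose (25.7%) and 2194 fell (24.2%) in the authors' deposited table, so that 50% were called in 1 direction or the other. By limma on the recovered reads 2947 were called, with 1816 and 1973 when Not1 RNAi library A or B was left out, 2086 and 2087 without LacZ RNAi library A or B, and 5512 without both libraries C. Genes that rose by at least 4-fold numbered 624 and genes that fell as far 437. At 16-fold the numbers were 222 and 38, and at 32-fold 107 and 10, counts that include genes near 0 in one group, whose fitted values depend on the model. The middle of the distribution stayed at a log2 of 0.01, with the 5th percentile at -2.22 and the 95th at 2.95. Genes that rose held 39.4% of all normalized counts in Not1 RNAi against 17.4% in LacZ RNAi, and genes that fell held 13.2% in Not1 RNAi against 32.4% in LacZ RNAi. The rising genes had a median level of 408 normalized counts in Not1 RNAi and 169 in LacZ RNAi, and the falling genes 108 in Not1 RNAi and 249 in LacZ RNAi. The direction of these shares and levels follows from the choice of genes by their calls, and only their size is informative.

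The calls were also set beside the single libraries and limma, which use the same samples and are no independent support. Among 2282 resolved genes that rose, 2014 had all 3 Not1 RNAi libraries above all 3 LacZ RNAi libraries, a pattern found in 25.2% of all resolved genes tested. Among 2166 resolved genes that fell, 1861 had all 3 Not1 RNAi libraries below, against 24% of all. Without both libraries C, limma called 2132 of the 2174 rising genes and 2044 of the 2096 falling genes that it tested, and 0 in the opposite direction. Among the rising genes, 355 had a LacZ RNAi mean below 5 and 103 had none at all. Genes at 0 in LacZ RNAi enter the tested set through the knockdown libraries and cannot fall, so their direction is set beforehand. Of 329 tested genes with a mean above 5000 in wild-type cells, which come from the separately normalized knockout experiment, 19.8% rose and 38.3% fell (median log2 -0.28).

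**Figure D1:**
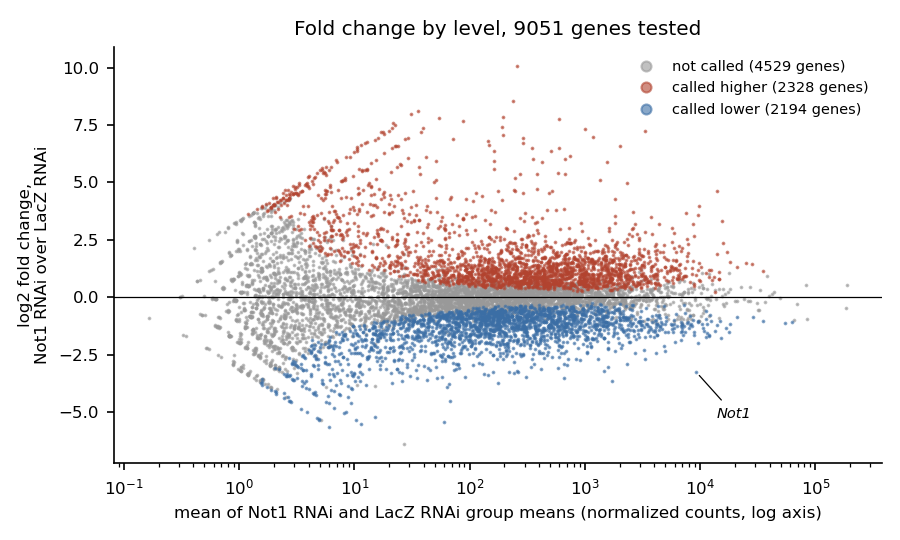
Log2 fold change of Not1 RNAi over LacZ RNAi (vertical axis) against the mean level of both groups in normalized counts (log axis) for the 9051 genes tested, coloured by the authors' call, with Not1 marked. By at least 32-fold 107 genes rose and 10 fell, counts that include genes near 0 in 1 group. Of all rising genes 103 were at 0 in LacZ RNAi, where a fall cannot be seen. Among falling genes 21 were at 0 in Not1 RNAi.

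The firmest rises included genes of the cell surface, the extracellular matrix and the cytoskeleton. bib (FBgn0000180, chromosome 2L, 9984645 to 9995538), a membrane protein of the aquaporin family, had 4654, 3225 and 4028 normalized counts in Not1 RNAi libraries A, B and C, against 45.3, 51.5 and 19.5 in the LacZ RNAi libraries. Its depleted libraries were all far above the controls, and the authors' deposited table gave a 96.8-fold rise (log2 6.60 ± 0.26, adjusted p = 4.56e-134). mew (FBgn0004456, chromosome X, 13214409 to 13258490), the αPS1 integrin subunit, had 974, 1021 and 1001 normalized counts in Not1 RNAi libraries A, B and C, against 11.8, 10.95 and 15.2 in the LacZ RNAi libraries. The spread within each group was small beside the gap, with log2 6.36 ± 0.30 (adjusted p = 1.79e-94) by the authors' deposited table and 6.39 without libraries C.

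wb (FBgn0261563, chromosome 2L, 14263027 to 14328262), a laminin α chain that binds such integrins, had 1193, 995 and 1367 in Not1 RNAi against 11.8, 18.6 and 6.51 in LacZ RNAi (log2 6.48 ± 0.33, adjusted p = 3.57e-81 by the authors' deposited table). Mmp2 (FBgn0033438, chromosome 2R, 9611139 to 9683858), a matrix metalloproteinase, had 1057, 986 and 964 in Not1 RNAi against 49.3, 33.9 and 36.9 in LacZ RNAi, which by the authors' deposited table was a 24.7-fold rise (log2 4.62 ± 0.20). The groups of each gene did not overlap, and the few reads of wb in LacZ RNAi varied most between libraries. form3, a formin that assembles actin filaments, had 1190.3, 1058 and 1149 in Not1 RNAi against 33.5, 19.7 and 26.03 in LacZ RNAi (log2 5.41 ± 0.24 in the authors' deposited table), and sn, the actin-bundling protein fascin, 2710.2, 2039.6 and 5308 in Not1 RNAi against 236, 230.0 and 390.5 in LacZ RNAi (log2 3.56 ± 0.33 in the authors' deposited table). For sn, library C stood above A and B in both groups, and its log2 was 3.33 without those libraries.

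Further large rises came with a high library C. mamo (FBgn0267033, chromosome X, 13846116 to 13990527), a zinc finger transcription factor, had 1176, 991 and 7022 in Not1 RNAi against 45.3, 22.996 and 91.1 in LacZ RNAi, and library C held several times what A and B did in Not1 RNAi. Its log2 of 5.87 ± 0.64 in the authors' deposited table was 5.02 without libraries C. dysc, which encodes a PDZ-domain protein of circadian output, had 2381, 1929 and 9089 in Not1 RNAi against 159.6, 113 and 158 in LacZ RNAi (log2 4.96 ± 0.47 in the authors' deposited table, 3.98 without libraries C). The groups of dysc and mamo did not overlap. mspo, an extracellular matrix protein, rose 14.1-fold, rau, a protein that sustains receptor tyrosine kinase signalling in glia, 14.3-fold, and cdi, a kinase, 13.002-fold in the authors' deposited table, with 3.48, 3.09 and 2.87 on the log2 scale without libraries C. corn had 658, 675 and 1293 in Not1 RNAi against 64.0, 86.5 and 32.5 in LacZ RNAi (log2 3.79 ± 0.33 in the authors' deposited table, 3.16 without libraries C), with no overlap. Pka-C3, a catalytic subunit of cAMP-dependent kinase, had means of 26798 in Not1 RNAi and 1095 in LacZ RNAi (log2 4.61 ± 0.58) in the authors' deposited table. Its Not1 RNAi libraries were not resolved, and the LacZ RNAi libraries held 829, 589 and 1868, highest in library C. fax, a gene of axon guidance, and fok rose 12.8-fold and 11.8-fold in the authors' deposited table, with 767, 686 and 1835 and 824, 699.7 and 2976 in LacZ RNAi and Not1 RNAi libraries that were not resolved.

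Some mRNAs were at a few reads in controls and well expressed after depletion. nord, a secreted modulator of BMP and Hedgehog signalling, had 382, 336 and 449 in Not1 RNAi against 3.94, 2.19 and 2.17 in LacZ RNAi (log2 7.05 ± 0.63 in the authors' deposited table). ab, a BTB zinc finger transcription factor, had 186, 228 and 544 in Not1 RNAi against 4.93, 2.19 and 4.34 in LacZ RNAi (log2 6.37 ± 0.62 in the authors' deposited table). ko had 267, 246 and 350.1 in Not1 RNAi against 0.985, 5.48 and 0 in LacZ RNAi, frm 214, 146 and 65.9 in Not1 RNAi against 1.97, 1.10 and 0 in LacZ RNAi and hoe2 117, 91.2 and 94.7 in Not1 RNAi against 1.97, 2.19 and 0 in LacZ RNAi. Each depleted library of these 5 genes held many times the highest control. The Nimrod receptor gene NimA had 619, 397 and 519 in Not1 RNAi against 0.985, 0 and 0 in LacZ RNAi, and sr, an EGR-family transcription factor of tendon cells, 448, 321 and 655 in Not1 RNAi against 1.97, 1.10 and 0 in LacZ RNAi. With 3 or fewer control reads in all for NimA, sr and frm, their fitted folds depend on the model and are no bounds.

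**Figure D2:**
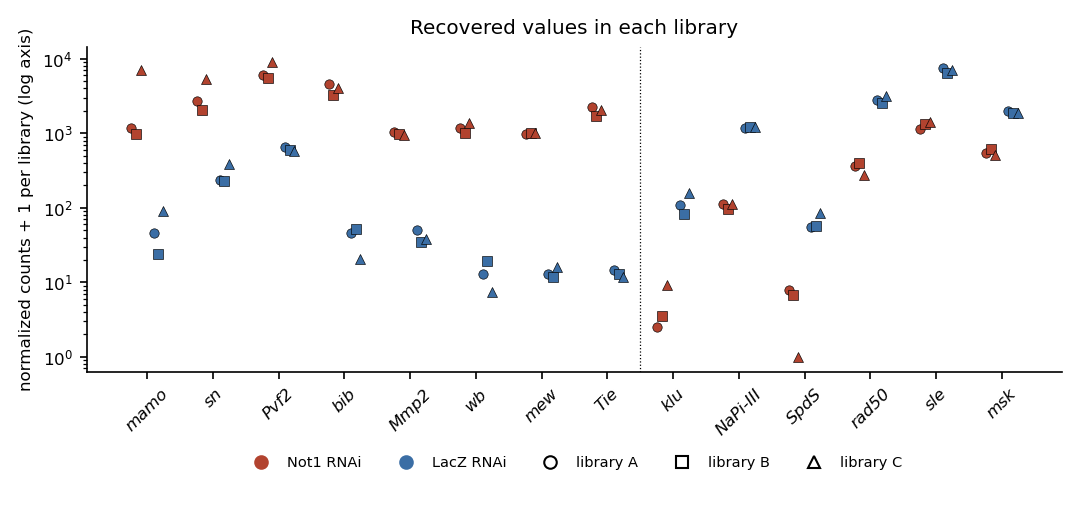
Normalized counts plus 1 (log axis) of 8 genes that rose and 6 that fell, in each Not1 RNAi (left) and LacZ RNAi (right) library, with circles, squares and triangles for libraries A, B and C. The groups of each of the 14 genes do not overlap, which a choice by call, p or fold in the same samples favours. Over all resolved genes tested, 25.2% had all Not1 RNAi libraries above and 24% all below. mamo shows the high Not1 RNAi library C, at 7022 against 1176 and 991 in A and B.

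The named falls with the smallest adjusted p were even across libraries, which a choice by p favours. NaPi-III (FBgn0260795, chromosome 3L, 11123348 to 11134663), a sodium-dependent phosphate transporter, had 111, 95.3 and 111 normalized counts in Not1 RNAi libraries A, B and C, against 1183, 1229.8 and 1234 in the LacZ RNAi libraries. It fell 11.6-fold (log2 -3.54 ± 0.17, adjusted p = 1.29e-94) by the authors' deposited table, and neither group varied much. sle (FBgn0037810, chromosome 3R, 10333115 to 10338265), a protein of the nucleolus, had 1159, 1324 and 1404 in Not1 RNAi against 7456, 6437 and 7148 in LacZ RNAi (log2 -2.44 ± 0.12, adjusted p = 3.29e-86 by the authors' deposited table). rad50 (FBgn0034728, chromosome 2R, 22421013 to 22425482), a subunit of the Mre11 complex that handles DNA double-strand breaks, had 359.9, 394 and 276 in Not1 RNAi against 2836, 2545 and 3172 in LacZ RNAi (log2 -3.02 ± 0.16, adjusted p = 9.71e-73 by the authors' deposited table). msk, the nuclear import receptor importin 7, had 542, 621 and 511 in Not1 RNAi against 1995, 1898 and 1900.4 in LacZ RNAi (log2 -1.77 ± 0.11 in the authors' deposited table). In all 4 genes each control library exceeded each depleted library. zip, the heavy chain of nonmuscle myosin II, had means of 6882 in Not1 RNAi and 23267 in LacZ RNAi (log2 -1.76 ± 0.10) in the authors' deposited table.

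The deepest falls among genes with a LacZ RNAi mean of at least 50, CG and other numbered genes left out, spanned a wide range of levels. Muc14A, a mucin gene, had 209, 278 and 288 in Not1 RNAi against 3075, 2113 and 4428 in LacZ RNAi (log2 -3.64 ± 0.28 in the authors' deposited table), without overlap. klu, a zinc finger transcription factor, had 1.52, 2.49 and 8.24 in Not1 RNAi against 108, 81.0 and 156.2 in LacZ RNAi, and Hacd2, a dehydratase of very long chain fatty acid elongation, 9.09, 7.46 and 8.24 in Not1 RNAi against 95.6, 96.4 and 95.5 in LacZ RNAi. SpdS, spermidine synthase, had 6.82, 5.80 and 0 in Not1 RNAi against 55.2, 56.9 and 84.6 in LacZ RNAi, and LManI, a lysosomal α-mannosidase, 40.9, 43.9 and 90.6 in Not1 RNAi against 545, 599 and 536 in LacZ RNAi. The depleted libraries were all below the controls, and in SpdS one of them held no read. Log2 values in the authors' deposited table were -5.44 ± 0.64 for klu, -3.53 ± 0.36 for Hacd2, -3.50 ± 0.46 for SpdS and -3.47 ± 0.25 for LManI. fs(1)N, an extracellular protein of the eggshell, fell 9.81-fold, JhI-21, an amino acid transporter, 10.0-fold, and Mocs1, of molybdenum cofactor synthesis, 10.9-fold in the authors' deposited table. RpS19b had 6.06, 6.63 and 0 in Not1 RNAi against 120.2, 117 and 158 in LacZ RNAi; reads that it shares with its paralog RpS19a could have been assigned to either.

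Genes of integrin adhesion and the basement membrane rose more often than they fell. Counts of this and the lists below stand against 25.7% higher and 24.2% lower over all genes (36.5% and 35.6% by limma without libraries C). Members shown by library were mostly chosen by smallest p, which favours groups without overlap, so their lack of overlap is no added support. Of the integrin and basement membrane list, 15 rose and 4 fell of 26 tested (median 0.72, against 0.01 for all genes), and 15 higher and 5 lower of 25, median 0.46 by limma without libraries C. In limma fits to 5 libraries the median was 0.43 when LacZ RNAi C was omitted. The α subunits mew, scb and ItgaPS4 and the β subunits mys and Itgbn rose by 6.36, 1.97, 1.98, 0.96 and 0.72 (log2), and rhea (talin), Vinc (vinculin) and Ilk by 2.36, 1.93 and 1.02, in the authors' deposited table. The matrix genes wb, trol and Pxn also rose, while the laminin chains LanA, LanB1 and LanB2 changed by -1.87, -1.44 and -1.67 and SPARC, a collagen-binding protein, by -0.80 in the authors' deposited table. LanB2 had 382, 400.3 and 461 in Not1 RNAi against 1473, 1467 and 968 in LacZ RNAi, with no overlap.

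Of cell-cell junction and polarity genes 17 rose and 4 fell of 32 tested (median 0.79; 18 higher and 7 lower of 32, median 0.51 without libraries C). sano, a planar polarity gene, had 5762, 4334 and 9785 in Not1 RNAi against 33.5, 40.5 and 60.7 in LacZ RNAi (log2 7.24 ± 0.38 in the authors' deposited table). Its depleted libraries ranged widely and still lay far above the controls. Fas3 and Fas2, adhesion proteins of the immunoglobulin family, rose 6.83-fold and 7.59-fold, stan, the atypical cadherin of planar polarity, 20.4-fold, vari, a septate junction scaffold, 6.36-fold, and baz (Par-3) 3.31-fold in the authors' deposited table. Of the tetraspanins, small proteins that span the membrane several times, 8 of 25 were at 0 in LacZ RNAi, and 10 rose and 2 fell of 17 tested (8 higher and 2 lower of 13, median 0.81 without libraries C). Tsp3A had 352, 357 and 399 in Not1 RNAi against 110.3, 118 and 78.1 in LacZ RNAi, Tsp66E 527, 487 and 371 in Not1 RNAi against 177, 154 and 126 in LacZ RNAi and Tsp42Ef, which fell, 52.3, 36.5 and 28.8 in Not1 RNAi against 130.0, 171 and 86.8 in LacZ RNAi. Each of these groups was free of overlap.

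Receptors and ligands of tyrosine kinase signalling were called mostly higher with all libraries and in both directions without libraries C. Of receptor tyrosine kinases and ligands 10 rose and 2 fell of 25 tested (median 0.55; 9 higher and 8 lower of 21, median -0.14 without libraries C). The median by limma was 0.31 when Not1 RNAi B was omitted and -0.11 when LacZ RNAi C was omitted. Tie (FBgn0014073, chromosome 3L, 4510698 to 4532145), a receptor tyrosine kinase of the Tie family, had 2222, 1708 and 2034 in Not1 RNAi against 13.8, 12.05 and 10.8 in LacZ RNAi (log2 7.31 ± 0.32 in the authors' deposited table). Pvf2, a ligand of the PDGF and VEGF family that acts on blood cells, had 6115, 5461 and 9134 in Not1 RNAi against 651, 592 and 586 in LacZ RNAi (log2 3.50 ± 0.20 in the authors' deposited table). Neither gene had overlapping groups. Egfr, the epidermal growth factor receptor, had 1282, 1169 and 1297 in Not1 RNAi against 276, 273 and 93.3 in LacZ RNAi (log2 2.52 ± 0.30 in the authors' deposited table). The low Egfr value of LacZ RNAi library C widened the gap, and the log2 was 2.16 without libraries C.

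In the EGF receptor and Ras/MAPK list, from ligands through Egfr to transcription factors, 13 rose and 3 fell of 22 tested (median 0.56). Without libraries C it had 11 higher and 6 lower of 19, median 0.44. Single libraries moved the median: it was 0.33 when LacZ RNAi C was omitted. Both activating and restraining members were among those that rose. Sos, the exchange factor that activates Ras, rose 2.86-fold, pnt, an ETS activator, 4.65-fold, aop (Yan), the ETS repressor that opposes it, 5.04-fold, and Star (S), which traffics the ligand, 6.70-fold in the authors' deposited table. rho-4, a rhomboid protease, was among the 3 that fell, with 208, 182 and 119 in Not1 RNAi against 458, 504 and 351 in LacZ RNAi and no overlap (log2 -1.31 ± 0.20 in the authors' deposited table).

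Genes of the JNK stress kinase pathway rose at several steps, from ligand to transcription factor. Of the JNK and AP-1 list 11 rose and 2 fell of 18 tested (median 1.32; 10 higher and 4 lower of 17, median 0.89 without libraries C). With limma the median came to 0.72 when Not1 RNAi C was omitted. The ligand egr, the fly tumour necrosis factor, had 364, 355 and 152 in Not1 RNAi against 56.2, 58.0 and 23.9 in LacZ RNAi, and Jra, the fly Jun, 965, 903 and 1338 in Not1 RNAi against 285, 301 and 284 in LacZ RNAi. Neither overlapped between groups. The egr receptor gene grnd rose by 4.33 ± 1.11, the kinases msn, slpr and Tak1 by 1.80, 1.10 and 1.02, kay (Fos) and Atf3 by 1.67 and 2.33, and the pathway's phosphatase puc by 1.54 (log2) in the authors' deposited table. bsk, the JNK itself, had -0.45 ± 0.23 (adjusted p = 0.0933) by the authors' deposited table. Gadd45, a growth arrest gene whose mRNA is a known target of nonsense-mediated decay in flies, fell, with 400.1, 478 and 354 in Not1 RNAi against 2121, 2320.4 and 1126 in LacZ RNAi.

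Cell death genes went both ways. Of the cell death and p53 list 8 rose and 6 fell of 17 tested (median 0.75; 8 higher and 7 lower of 15, median 0.76 without libraries C). rpr, an antagonist of the caspase inhibitor Diap1, had 435, 344 and 667 in Not1 RNAi against 9.85, 18.6 and 8.68 in LacZ RNAi, and hid, another such antagonist, 314, 268 and 1038 in Not1 RNAi against 67.0, 59.1 and 30.4 in LacZ RNAi. Their depleted libraries were all above the controls, with hid highest in library C. The authors' deposited table gave log2 5.21 ± 0.38 for rpr and 3.33 ± 0.47 for hid, the value for hid being 2.19 without libraries C. The effector caspase gene Drice had 669.8, 670.5 and 659 in Not1 RNAi against 324, 387 and 341 in LacZ RNAi (log2 0.93 ± 0.12 in the authors' deposited table). Xrp1, a transcription factor of the DNA damage and cell competition response, fell 2.57-fold in the authors' deposited table.

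The autophagy and lysosome list held more genes that rose than fell. Of its members 19 rose and 6 fell of 29 tested (median 0.93; 19 higher and 6 lower of 28, median 0.81 without libraries C). Vps15 and Pi3K59F, the regulatory and catalytic parts of the autophagy lipid kinase, had 528, 446 and 482 in Not1 RNAi against 78.8, 95.3 and 75.9 in LacZ RNAi and 436, 440.1 and 424 in Not1 RNAi against 166, 159 and 161 in LacZ RNAi. Their partner Atg6 had 371, 345 and 288 in Not1 RNAi against 89.6, 74.5 and 67.3 in LacZ RNAi, and Atg8a, the protein joined to autophagosome membranes, 9432, 8027 and 8014 in Not1 RNAi against 3397, 3618 and 3818 in LacZ RNAi. None of the 4 overlapped between groups. Atg17, Atg9, Atg2 and Atg1 rose by 2.32, 1.95, 1.56 and 0.93 (log2) in the authors' deposited table. Among members that fell, the cathepsin genes Cp1, CtsB1 and cathD changed by -0.85, -0.97 and -0.70 and the mannosidases LManI and LManII by -3.47 and -2.10 in the authors' deposited table. Mitf, a transcription factor of lysosomal genes, changed by -0.57 in the authors' deposited table. The vacuolar proton pump that acidifies lysosomes fell in most members: 1 rose and 11 fell of 18 tested (median -0.78; 2 higher and 11 lower of 16, median -0.81 without libraries C). VhaPPA1-1 and Vha26 had 568, 526 and 486 in Not1 RNAi against 1292, 1383 and 1152 in LacZ RNAi and 2747, 2544 and 3393 in Not1 RNAi against 6487, 6435 and 6584 in LacZ RNAi, without overlap.

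Nutrient signalling genes and hormone receptors rose more often than they fell, against 25.7% higher and 24.2% lower over all genes. In insulin and TOR signalling 9 rose and 2 fell of 20 tested (median 0.56; 8 higher and 5 lower of 18, median 0.14 without libraries C). In limma fits to 5 libraries the median was 0.37 when Not1 RNAi C was omitted and 0.30 when LacZ RNAi C was omitted. Tor had 1593, 1503 and 2034 in Not1 RNAi against 605, 579 and 471 in LacZ RNAi, and Thor, the translation inhibitor 4E-BP, 735, 731 and 667 in Not1 RNAi against 326, 329 and 306 in LacZ RNAi. Pi3K92E and Akt1, which promote the signal, rose 3.03-fold and 2.54-fold in the authors' deposited table. Of nuclear receptors and ecdysone response genes 12 rose and 1 fell of 21 tested (median 1.06; 12 higher and 2 lower of 19, median 0.71 without libraries C). The ecdysone receptor EcR and its partner usp had 825, 801 and 1429 in Not1 RNAi against 458, 407 and 273 in LacZ RNAi and 1781, 1709 and 3430.5 in Not1 RNAi against 591, 613 and 1048 in LacZ RNAi, and both groups of each stood clear of each other. ERR, an activator of glycolytic genes in larvae, had 308, 300.0 and 453 in Not1 RNAi against 94.6, 92.0 and 67.3 in LacZ RNAi (log2 2.01 ± 0.24 in the authors' deposited table).

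Of the JAK/STAT list 8 rose and 3 fell of 16 tested (8 higher and 4 lower of 14, median 0.35 without libraries C). The receptor dome had 1949, 1861 and 2739 in Not1 RNAi against 918, 906 and 783 in LacZ RNAi and the transcription factor Stat92E 6314, 5825 and 5551 in Not1 RNAi against 2518, 2591 and 1382 in LacZ RNAi, without overlap (log2 1.32 ± 0.18 and 1.44 ± 0.22 in the authors' deposited table). TotM, a secreted stress peptide, had 1194, 1037 and 2137 in Not1 RNAi against 0, 5.48 and 58.6 in LacZ RNAi, a wide spread in both groups. Of Wnt and Hedgehog genes 12 rose and 1 fell of 26 tested (median 0.74; 14 higher and 3 lower of 23, median 0.54 without libraries C). The Frizzled receptor genes fz, fz2, fz3 and fz4 rose 3.12-fold, 6.68-fold, 7.72-fold and 2.86-fold in the authors' deposited table. For fz3 the libraries read 103.8, 87.9 and 136 in Not1 RNAi against 19.7, 13.1 and 4.34 in LacZ RNAi. The Hedgehog pathway repressor genes cos and Su(fu) rose 1.603-fold and 2.11-fold in the authors' deposited table.

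Immune genes moved in both directions, against 25.7% higher and 24.2% lower over all genes. Of the Toll and Imd list 9 rose and 8 fell of 25 tested (median -0.11; 10 higher and 13 lower of 24, median -0.49 without libraries C). The median by limma was -0.0268 when Not1 RNAi A was omitted, -0.27 when Not1 RNAi C was omitted, -0.0317 when LacZ RNAi B was omitted and -0.29 when LacZ RNAi C was omitted. Tl, the Toll receptor, had 629.6, 628 and 548 in Not1 RNAi against 134, 155 and 71.6 in LacZ RNAi, and its adaptor Myd88 1667, 1328 and 3105 in Not1 RNAi against 531, 498 and 479 in LacZ RNAi, while tub, the next adaptor, had 90.9, 112 and 32.9 in Not1 RNAi against 252, 292 and 286 in LacZ RNAi. The first and second were higher and the third lower in every depleted library. GNBP1, GNBP2 and GNBP3, of the β-glucan recognition family, changed by -1.65, -3.45 and -3.13 (log2) in the authors' deposited table. Of 7 antimicrobial peptide genes tested 3 rose, all by at least 2-fold, and limma without libraries C tested 1 member. The list summed to 70.4 normalized counts in Not1 RNAi and 31.7 in LacZ RNAi. Of its 18 genes 11 were at 0 in LacZ RNAi, so the direction of this count is partly fixed. Most of the sum came from CecC, called or not. It had 56.1, 67.1 and 20.6 in Not1 RNAi against 18.7, 22.996 and 34.7 in LacZ RNAi, and its groups overlapped in library C.

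Subunits of Mediator and of the proteasome were also among the genes that rose. Of RNA polymerase II and Mediator subunits and their cofactors 22 rose and 2 fell of 41 tested (median 0.41; 24 higher and 4 lower of 41, median 0.51 without libraries C). Cdk8, the Mediator kinase, had 486, 462 and 305 in Not1 RNAi against 93.6, 104.03 and 67.3 in LacZ RNAi, and kto, Med12 of the same module, 3967, 4003 and 5844 in Not1 RNAi against 1717, 1783 and 1625 in LacZ RNAi. The elongation factor Spt5 had 889.5, 861 and 939 in Not1 RNAi against 445, 465 and 459.9 in LacZ RNAi, and MED6, of the Mediator head, fell with 109, 124 and 78.2 in Not1 RNAi against 286, 319 and 618 in LacZ RNAi. None of the 4 overlapped. Of proteasome subunits 13 rose and 1 fell of 33 tested (median 0.38), and limma without libraries C gave 27 higher and 1 lower of 32, median 0.68. Single libraries moved the median: it was 0.26 when LacZ RNAi B was omitted and 0.60 when LacZ RNAi C was omitted. By the calls with all libraries the rising members were mostly of the regulatory particle, with Prosbeta4 alone from the core. The others were the base ATPases Rpt1, Rpt2, Rpt3 and Rpt6 and the non-ATPase subunits Rpn1, Rpn2, Rpn7, Rpn9, Rpn10, Rpn11, Rpn12 and Rpn13. Without libraries C the 27 higher subunits outnumbered the regulatory members of the list, so this split was not kept. In LacZ RNAi library C the list lay 0.53 (log2, median) above libraries A and B, against -0.24 in Not1 RNAi. Rpt6 had 1474, 1587 and 1425 in Not1 RNAi against 549, 459.9 and 837 in LacZ RNAi and Rpn10 2028, 1957 and 1396 in Not1 RNAi against 928, 862 and 933 in LacZ RNAi.

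Patterning transcription factors and ion channels included many genes with few or no reads in LacZ RNAi. Members at 0 in LacZ RNAi pass the filter on low values only through knockdown libraries, so the direction of these counts is partly fixed by it. Of 57 early response and patterning factors 21 were at 0 in LacZ RNAi. Of the 32 early response and patterning factors tested 14 rose and 3 fell (without libraries C, 15 higher and 5 lower of 26). luna, a Krüppel-like factor, had 383, 322 and 811 in Not1 RNAi against 45.3, 37.2 and 56.4 in LacZ RNAi (log2 3.44 ± 0.35 in the authors' deposited table), and Blimp-1, a PRDM repressor, 56.8, 39.8 and 115.3 in Not1 RNAi against 0, 0 and 0 in LacZ RNAi. tsh, a zinc finger homeotic gene, fell with 974, 932 and 729 in Not1 RNAi against 2846, 2720.1 and 2575 in LacZ RNAi (log2 -1.61 ± 0.13 in the authors' deposited table). Each of these 3 was separated between groups. Of 48 ion channels and neuronal receptors 21 were at 0 in LacZ RNAi, and 11 rose and 0 fell of 23 tested (without libraries C, 8 higher and 1 lower of 15), among them CCAP-R, a neuropeptide receptor, with 219.7, 270.2 and 647 in Not1 RNAi against 1.97, 0 and 6.51 in LacZ RNAi, the mechanosensitive channel Piezo with 490.2, 439 and 424 in Not1 RNAi against 178, 169 and 54.2 in LacZ RNAi and the potassium channel KCNQ with 44.7, 45.6 and 37.1 in Not1 RNAi against 0.985, 0 and 0 in LacZ RNAi.

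Glycolysis fell almost throughout. Of the glycolysis and glycogen list 0 rose and 13 fell of 15 tested (median -1.54; 0 higher and 14 lower of 15, median -1.34 without libraries C). Eno, enolase, had 536, 594 and 572 in Not1 RNAi against 2192, 2400.4 and 3224 in LacZ RNAi, Tpi, triosephosphate isomerase, 111, 118 and 111 in Not1 RNAi against 456, 412 and 584 in LacZ RNAi and Gapdh2 1019.8, 1146 and 877 in Not1 RNAi against 3739.6, 4267 and 3690.1 in LacZ RNAi. Every control library exceeded every depleted library by a wide margin. Pfk, phosphofructokinase, had 274, 283 and 313 in Not1 RNAi against 888, 1021 and 764 in LacZ RNAi and PyK, pyruvate kinase, 774, 892 and 881 in Not1 RNAi against 1985, 1899.9 and 2104 in LacZ RNAi (log2 -1.65 ± 0.15 and -1.24 ± 0.10 in the authors' deposited table). Ldh, lactate dehydrogenase, and the glycogen enzymes GlyS and GlyP changed by -0.98, -1.16 and -0.81 in the authors' deposited table. Hex-A, hexokinase, had -0.25 ± 0.48 (adjusted p = 0.69) and Gpdh1 0.02 ± 0.18 (adjusted p = 0.946) by the authors' deposited table.

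Mitochondrial metabolism fell less evenly. In the citric acid cycle and pyruvate list, which also holds the cyclin gene CycD, 1 rose and 10 fell of 21 tested (median -0.32). Without libraries C it had 1 higher and 11 lower of 21, median -0.32. With limma the median came to -0.50 when Not1 RNAi A was omitted, -0.53 when Not1 RNAi B was omitted and -0.52 when Not1 RNAi C was omitted. Fum1, fumarase, had 133, 184 and 231 in Not1 RNAi against 658, 600.1 and 987 in LacZ RNAi and Mdh2, mitochondrial malate dehydrogenase, 220.5, 247 and 181 in Not1 RNAi against 572, 614 and 753 in LacZ RNAi, without overlap, while Men-b, a mitochondrial malic enzyme, rose with 2548, 2265 and 2401 in Not1 RNAi against 968, 1145 and 866 in LacZ RNAi. Of oxidative phosphorylation subunits 0 rose and 32 fell of 55 tested (median -0.79). In limma fits to 5 libraries the median was -0.49 when LacZ RNAi C was omitted. Without libraries C they were 8 higher and 29 lower of 54, median -0.41, and in LacZ RNAi library C the list lay 0.70 (log2, median) above libraries A and B, against -0.40 in Not1 RNAi. ATPsynbeta, the catalytic β subunit of ATP synthase, had 1165, 1272 and 1116 in Not1 RNAi against 3334, 3153 and 4267 in LacZ RNAi, and UQCR-C1, of complex III, 1552, 1662 and 1404 in Not1 RNAi against 2934, 2936 and 3360.4 in LacZ RNAi. Neither overlapped between groups.

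Genes of the translation apparatus fell far more often than they rose. Of cytosolic ribosomal protein genes 0 rose and 46 fell of 79 tested (median -1.10), and 1 higher and 64 lower of 69, median -1.06 without libraries C. The median by limma was -0.73 when Not1 RNAi A was omitted and -0.46 when LacZ RNAi C was omitted. RpL37a had 1484, 1703 and 1981 in Not1 RNAi against 4105, 3908 and 5222 in LacZ RNAi and RpL11 4718, 5100.3 and 5432 in Not1 RNAi against 9474, 10163 and 14672 in LacZ RNAi. The groups of both stood apart, although library C was the highest of its group in each. Of initiation and elongation factors 1 rose and 16 fell of 36 tested (median -0.70; 2 higher and 21 lower of 30, median -0.58 without libraries C). Single libraries moved the median: it was -0.31 when LacZ RNAi C was omitted. eIF4G1, the scaffold that joins the cap and the poly(A) tail, had 1824, 2005 and 1701 in Not1 RNAi against 7501, 6919.7 and 3742 in LacZ RNAi, and eIF3a 1665, 1821 and 2273 in Not1 RNAi against 4154, 3803 and 4211 in LacZ RNAi. Of aminoacyl-tRNA synthetases and their scaffold proteins 0 rose and 15 fell of 22 tested (median -0.68; 2 higher and 17 lower of 22, median -0.54 without libraries C). GluProRS had 279, 290.1 and 305 in Not1 RNAi against 1127, 1130.1 and 1050.0 in LacZ RNAi and IleRS 223, 229.6 and 214 in Not1 RNAi against 683, 709.6 and 727 in LacZ RNAi, tight in both groups.

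Of ribosome biogenesis genes 2 rose and 16 fell of 27 tested (median -0.86; 5 higher and 19 lower of 27, median -0.72 without libraries C). RpI1, the largest subunit of RNA polymerase I, had 35.6, 51.4 and 32.9 in Not1 RNAi against 382, 412 and 399 in LacZ RNAi, and RpI135, the next largest, 67.4, 73.8 and 74.1 in Not1 RNAi against 288, 259.5 and 273 in LacZ RNAi (log2 -3.24 ± 0.21 and -1.94 ± 0.19 in the authors' deposited table). Both were several times lower in each depleted library. Nopp140, a nucleolar assembly factor, had 239, 244 and 173 in Not1 RNAi against 1225, 1086 and 1113 in LacZ RNAi and Mybbp1A, another nucleolar protein, 119, 120.2 and 144 in Not1 RNAi against 494, 464 and 551 in LacZ RNAi. Of subunits of the CCT chaperonin and prefoldin, which fold actin and tubulin, 0 rose and 7 fell of 13 tested (median -0.39; 2 higher and 7 lower of 13, median -0.23 without libraries C). With limma the median came to -0.25 when LacZ RNAi C was omitted. CCT1 had 696, 806 and 766 in Not1 RNAi against 1488, 1547 and 2111 in LacZ RNAi, with no overlap.

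Genes of growth and genome duplication fell more often than they rose. Over all genes 25.7% were higher and 24.2% lower (36.5% and 35.6% by limma without libraries C). Of nucleotide supply and replication genes 5 rose and 14 fell of 35 tested (median -0.21; 10 higher and 15 lower of 34, median -0.21 without libraries C). r-l and r, which encode enzymes of pyrimidine synthesis, had 31.8, 34.8 and 32.9 in Not1 RNAi against 166, 149 and 156.2 in LacZ RNAi and 87.9, 94.5 and 132 in Not1 RNAi against 331, 333.995 and 243 in LacZ RNAi. dnk, deoxynucleoside kinase, had 77.3, 100.3 and 78.2 in Not1 RNAi against 253, 251 and 219 in LacZ RNAi, and dup (Cdt1), which licenses origins, 279.6, 299 and 227 in Not1 RNAi against 582, 559.6 and 590.1 in LacZ RNAi. All 4 were lower in each depleted library. Of cell cycle genes 7 rose and 15 fell of 33 tested (median -0.15; 7 higher and 14 lower of 32, median -0.12 without libraries C). In limma fits to 5 libraries the median was -0.0548 when LacZ RNAi B was omitted. CycB, the mitotic cyclin B, had 224, 254 and 189 in Not1 RNAi against 669, 591 and 581 in LacZ RNAi and Dp, the E2F partner, 647, 716 and 609.5 in Not1 RNAi against 1304, 1185 and 1323 in LacZ RNAi, while Rbf, the retinoblastoma protein that restrains E2F, rose with 1637, 1507 and 1404 in Not1 RNAi against 811, 788 and 913 in LacZ RNAi. Of the splicing list 3 rose and 15 fell of 34 tested (median -0.45; 10 higher and 15 lower of 34, median -0.18 without libraries C), and of the SR proteins B52 and SC35 fell 2.25-fold and 3.04-fold in the authors' deposited table. Among the rising members of that list was peb, a zinc finger transcription factor that is no splicing factor. The median of the splicing list by limma was -0.22 when LacZ RNAi C was omitted.

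Redox genes fell more often than they rose, and lipid genes were near the share of all genes. Of glutathione and redox genes 3 rose and 11 fell of 24 tested (median -0.59; 3 higher and 13 lower of 23, median -0.44 without libraries C). The glutathione transferases GstD9, GstE6 and GstE9, members of clusters whose close copies may share reads, fell 5.59-fold, 3.26-fold and 3.84-fold, while Gclc, which makes the glutathione precursor, and Keap1, the inhibitor of the oxidative stress factor CncC, rose 2.44-fold and 2.67-fold in the authors' deposited table. Of fatty acid and sterol genes 6 rose and 7 fell of 23 tested, near the 25.7% and 24.2% of all genes (6 higher and 11 lower of 22, median -0.25 without libraries C, against 36.5% and 35.6% of all genes by limma). Desat1, the stearoyl-CoA desaturase, had 835, 837 and 696 in Not1 RNAi against 3205, 3315 and 3072 in LacZ RNAi (log2 -2.003 ± 0.13 in the authors' deposited table), and bond, a fatty acid elongase, 268, 239.5 and 218 in Not1 RNAi against 4.93, 12.05 and 21.7 in LacZ RNAi (log2 4.40 ± 0.43 in the authors' deposited table). Desat1 was lower and bond higher in every depleted library. Sam-S, which makes the methyl donor S-adenosylmethionine, had 878, 855 and 811 in Not1 RNAi against 2199, 2155 and 1731 in LacZ RNAi.

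Chaperones moved in both directions. Of heat shock genes 6 rose and 3 fell of 15 tested (median 1.05; 4 higher and 2 lower of 9, median 0.35 without libraries C). Single libraries moved the median: it was 0.52 when Not1 RNAi C was omitted and 0.61 when LacZ RNAi C was omitted. The mitochondrial chaperones Hsp60A and Hsc70-5 had 1424, 1601 and 1449.6 in Not1 RNAi against 3500.2, 3690.4 and 3324 in LacZ RNAi and 793, 859 and 544 in Not1 RNAi against 2139, 2003 and 1716 in LacZ RNAi. Hsp23, a small heat shock protein, had 658, 634 and 395 in Not1 RNAi against 127, 154 and 106 in LacZ RNAi, and stv (Starvin), the BAG-family co-chaperone, 2347, 2045 and 3208 in Not1 RNAi against 815, 944 and 592 in LacZ RNAi. Both mitochondrial genes were lower and Hsp23 and stv higher in all depleted libraries. In the endoplasmic reticulum list 4 rose and 6 fell of 18 tested (4 higher and 10 lower of 16, median -0.43 without libraries C): Calr and ERp60, which fold secretory proteins, fell 2.85-fold and 2.80-fold, as did crc (ATF4) with 3.17-fold, while Herp and Edem2, of degradation from that compartment, rose 3.41-fold and 2.17-fold in the authors' deposited table.

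**Figure D3:**
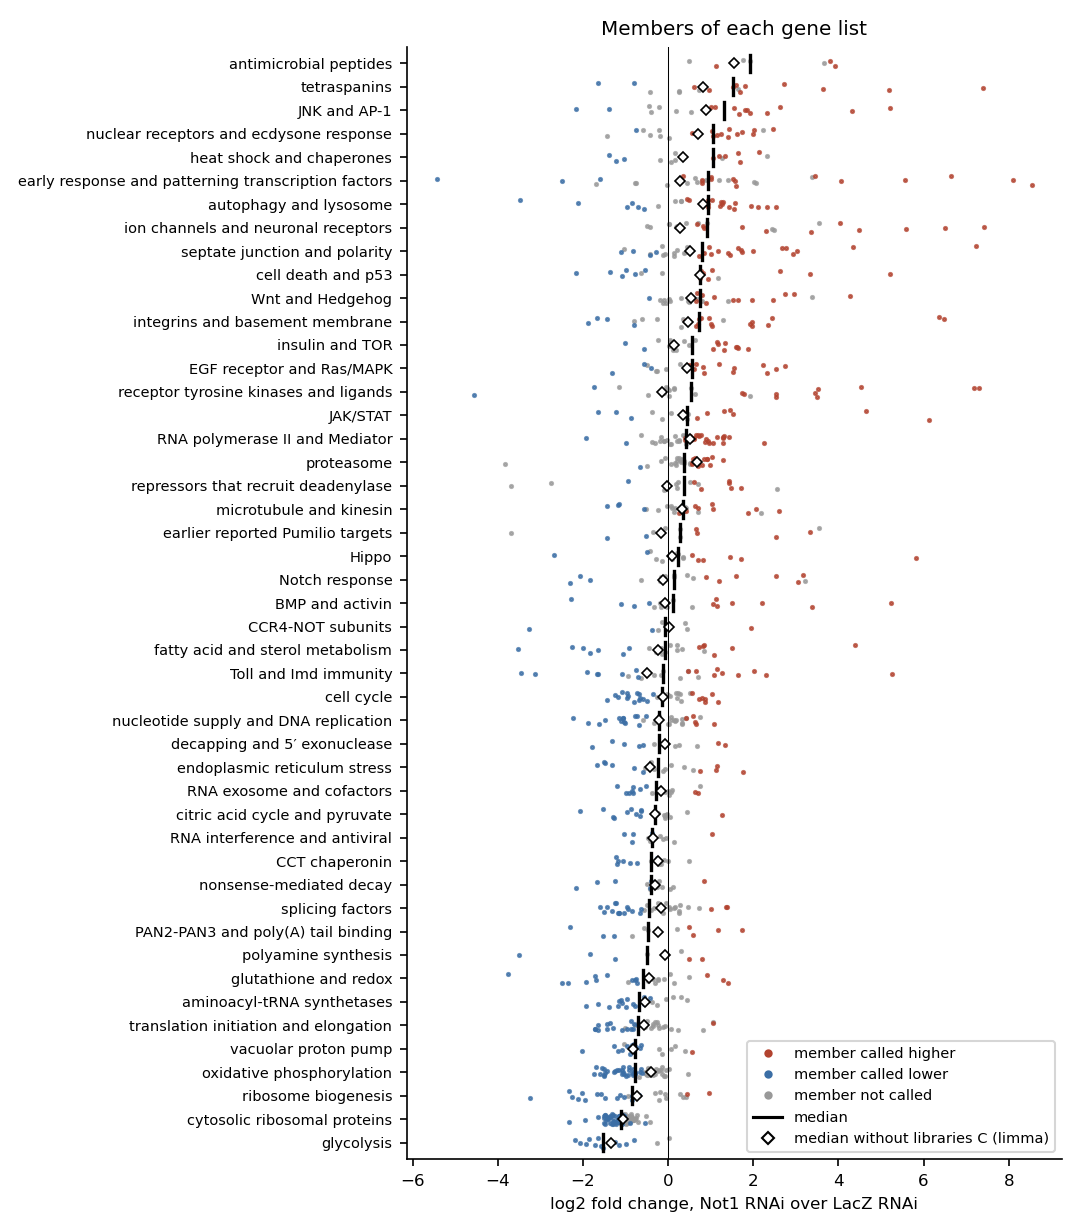
Log2 fold change of Not1 RNAi over LacZ RNAi (horizontal axis) for the tested members of 47 gene lists, 1 point per gene, coloured by the authors' call, with the list median as a black line and the median without libraries C as a diamond. Glycolysis and cytosolic ribosomal proteins lie to the left (medians -1.54 and -1.10), autophagy and JNK genes to the right (0.93 and 1.32). Medians of lists with genes near 0 in LacZ RNAi depend on fitted values.

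Genes of other steps of mRNA decay moved in both directions, against 25.7% higher and 24.2% lower over all genes. Of decapping and 5′ exonuclease genes 2 rose and 5 fell of 12 tested (median -0.21; 4 higher and 5 lower of 11, median -0.07 without libraries C), and the median was above 0 under 5 of 11 alternatives, at up to 0.27. me31B, the DEAD-box helicase that links deadenylation to decapping, had 783, 778 and 399 in Not1 RNAi against 2078, 2169 and 2575 in LacZ RNAi (log2 -1.78 ± 0.23 in the authors' deposited table), and Ge-1, a decapping scaffold, 755, 816 and 655 in Not1 RNAi against 1264, 1251 and 1089 in LacZ RNAi. Both were lower in each depleted library, while Rat1, the nuclear 5′ exonuclease, rose with 1479, 1317 and 1478 in Not1 RNAi against 581, 566 and 751 in LacZ RNAi. Of exosome and cofactor genes 2 rose and 8 fell of 18 tested (4 higher and 8 lower of 18, median -0.16 without libraries C), with Dis3, a catalytic subunit, at 96.2, 97.8 and 136 in Not1 RNAi against 179, 183 and 187 in LacZ RNAi and the ribosome rescue factor pelo at 384, 379.6 and 259 in Not1 RNAi against 710.3, 774 and 601 in LacZ RNAi. Of nonsense-mediated decay genes, counting the target gene Gadd45, which fell, 1 rose and 5 fell of 13 tested. By limma without libraries C, the list of this decay had 2 higher and 9 lower of 13, median -0.31. Upf1, its central helicase, had 427, 389.5 and 309 in Not1 RNAi against 1255, 1229.8 and 1221 in LacZ RNAi (log2 -1.68 ± 0.13, adjusted p = 1.13e-37 by the authors' deposited table), tight in both groups.

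Genes of tail synthesis and tail binding split. Of the PAN2-PAN3 and poly(A) binding list 4 rose and 3 fell of 11 tested (median -0.47; 4 higher and 5 lower of 9, median -0.23 without libraries C), and the median was above 0 under 6 of 11 alternatives, at 0.22 to 0.43. hrg, the nuclear poly(A) polymerase, had 1319.9, 1194 and 754 in Not1 RNAi against 4872, 4777 and 6751 in LacZ RNAi, Nab2, a poly(A)-binding protein of the nucleus, 225, 229.6 and 210.0 in Not1 RNAi against 511, 418 and 686 in LacZ RNAi and PAN2, of the other cytoplasmic deadenylase, 984, 1026 and 836 in Not1 RNAi against 711, 776 and 542 in LacZ RNAi. hrg and Nab2 were lower and PAN2 higher in each depleted library. PAN3 rose by 1.17 ± 0.43 in the authors' deposited table, with 5129, 4739 and 16172 in Not1 RNAi against 3122, 2668 and 5753 in LacZ RNAi, so its groups overlapped, and its log2 was 0.77 without libraries C.

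The list of repressors that bring in the deadenylase is mixed, and some members, such as sbr, fne and Imp, are RNA-binding proteins of other kinds. It had 18 genes tested, of which 6 rose and 1 fell. By limma without libraries C there were 5 higher and 4 lower of 12, median -0.02. gw had 4585, 4124 and 6087 in Not1 RNAi against 3177, 3236 and 3326 in LacZ RNAi (log2 0.60 ± 0.17 in the authors' deposited table), and pum 2927, 2570.0 and 8624 in Not1 RNAi against 1665, 1421 and 2178 in LacZ RNAi, with library C highest in each group. pum rose by 1.42 ± 0.39 in the authors' deposited table, and limma no longer called it without Not1 RNAi library C (0.65) or without LacZ RNAi library A or B (1.34 and 1.25). brat, a translational repressor and partner of Pumilio, had 5240.1, 4591 and 9291 in Not1 RNAi against 4191, 4059 and 3007 in LacZ RNAi (log2 0.76 ± 0.27 in the authors' deposited table, 0.25 without libraries C). AGO1, the microRNA-binding Argonaute, had means of 41445 in Not1 RNAi and 15371 in LacZ RNAi (log2 1.43 ± 0.41) in the authors' deposited table. Of small RNA pathway genes 1 rose and 4 fell of 11 tested (0 higher and 5 lower of 9, median -0.36 without libraries C): AGO2, which acts with the siRNAs made from the applied double-stranded RNA, rose 2.03-fold, and drosha, which cuts microRNA precursors, fell 1.79-fold in the authors' deposited table. Of the earlier reported Pumilio targets 4 rose and 2 fell of 12 tested (4 higher and 3 lower of 9, median -0.16 without libraries C), against shares over all genes of 25.7% higher and 24.2% lower (36.5% and 35.6% without libraries C). Those higher were hid, Egfr, Raf and zfh1, and those lower CycB and Nmnat.

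Genes that rose and genes that fell differed in length. In the dm6 annotation of Ensembl, which gave the same coordinates for 99.8% of matched genes, the median 3′ untranslated region (UTR) was 506 bases for protein-coding genes that rose, 241 for those that fell and 278.5 for those not called. Median gene span was 4578, 2514 and 2509.5 bases in the same order, and median coding length 1746, 1362 and 1318.5 bases. Of 842 genes with a 3′ UTR over 1600 bases, 41.2% rose and 10.6% fell, and of 1506 with 100 bases or fewer, 15.9% rose and 29.2% fell. Long genes stood out further. Of 253 genes that span over 50000 bases 53.4% rose and 6.72% fell (median log2 0.96), and of 2945 that span 2000 bases or fewer 18.03% rose and 26.7% fell (median -0.20).

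The slope with length was smaller without libraries C. In Not1 RNAi library C genes with a 3′ UTR over 1600 bases lay 0.48 (log2, median) above libraries A and B, and in LacZ RNAi library C the difference was -0.22. Without both, 46.8% of these genes were called higher and 27.8% lower, against 30.4% and 38.1% of genes with 100 bases or fewer. Genes spanning over 50000 bases were then higher in 59.9% and lower in 16.9% (median 0.49), against 33.4% and 33.5% of those up to 2000 bases. Over all genes limma called 36.5% higher and 35.6% lower without libraries C. Genes spanning over 20000 bases were grouped at 5 to 200, 200 to 1000 and over 1000 normalized counts in wild-type cells. They rose in 53.3%, 51.1% and 52.1%, so the share called higher was alike at each level. The size of the change was not. In the same order the median log2 was 1.45, 0.61 and 0.68, and 36.2%, 13.8% and 8.61% rose by at least 4-fold. Long span, long UTR and many exons go together, and their separate parts were not tested.

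**Figure D4:**
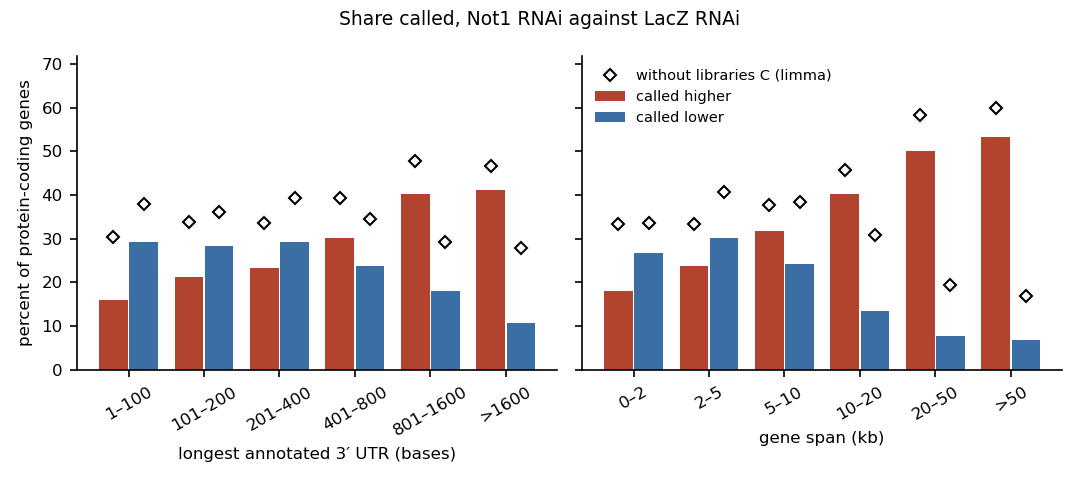
Percent of tested protein-coding genes that rose or fell in Not1 RNAi (vertical axis) by length of the 3′ UTR and by gene span in bases (horizontal axes), with diamonds for limma without libraries C. The share that rose climbs from 15.9% to 41.2% with the length of the 3′ UTR and from 18.03% to 53.4% with gene span.

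Knockdown of the deadenylase Pop2 with the same controls called 39% of genes (18.8% higher and 20.1% lower). Both comparisons share the LacZ RNAi samples, so their values are given side by side. Genes that rose in Not1 RNAi had a median log2 of 0.86 in Pop2 RNAi and genes that fell -0.92, in the authors' deposited table. For the firmest genes the values in Not1 RNAi and Pop2 RNAi were 6.60 ± 0.26 and 5.76 ± 0.26 for bib, 6.36 ± 0.30 and 6.21 ± 0.30 for mew, -3.54 ± 0.17 and -2.98 ± 0.15 for NaPi-III and -2.20 ± 0.18 and -1.67 ± 0.17 for Eno in the authors' deposited table. In Pum RNAi, where 0.733% of genes were called (0.512% higher and 0.221% lower), the same sets of genes had medians of 0.06 and -0.12, and bib had 1.71 ± 0.27, in the authors' deposited table.

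The difference of the 2 fold changes was itself tested, over the root of the summed squared SE and with Benjamini-Hochberg adjustment, a test that overstates the error because controls are shared. It was past an adjusted p of 0.05 as higher in Not1 RNAi for 49 genes (0.541%) and as lower for 66 (0.729%). A direct limma comparison of both knockdowns, added after the data were seen, gave 433 genes, and 2026 without Not1 RNAi library C. Genes past an adjusted p of 0.05 with a mean of at least 50 were ranked, leaving out CG, CR, lncRNA and asRNA names. Among the ranked genes, the targeted genes themselves had the largest differences. The next largest upwards among them were aay, a phosphoserine phosphatase (2.42 ± 0.65, adjusted p = 0.0188), rpr (2.07 ± 0.54, adjusted p = 0.0148), fend (1.85 ± 0.49, adjusted p = 0.0159), Tie (1.72 ± 0.45, adjusted p = 0.0165) and the ADAM protease gene Meltrin (1.44 ± 0.38, adjusted p = 0.0159). For rpr, the log2 was 5.21 ± 0.38 in Not1 RNAi and 3.14 ± 0.38 in Pop2 RNAi, in the authors' deposited table.

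Downwards among them, the differences were -1.80 ± 0.34 for XRCC1, a scaffold of single-strand break repair (adjusted p = 0.000103), -1.35 ± 0.23 for rad50 (adjusted p = 3.03e-06), -1.36 ± 0.30 for the helicase RecQ5 (adjusted p = 0.00142) and -1.47 ± 0.33 for shop (adjusted p = 0.00218). XRCC1 had 256, 275 and 140.0 in Not1 RNAi against 780.2, 701 and 1149.8 in LacZ RNAi, with log2 -1.92 ± 0.25 in Not1 RNAi and -0.12 ± 0.24 in Pop2 RNAi in the authors' deposited table. The Not1 RNAi libraries of XRCC1 all lay below the controls. Among the genes with the smallest p, sle differed by -1.32 ± 0.17 (adjusted p = 2.85e-11), zip by -0.92 ± 0.15 and msk by -0.78 ± 0.15. piwi, of the germline small RNA pathway, differed by -1.91 ± 0.54 (adjusted p = 0.0397), since it rose in Pop2 RNAi (2.47 ± 0.38) and was not called in Not1 RNAi (0.56 ± 0.39) by the authors' deposited table.

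**Figure D5:**
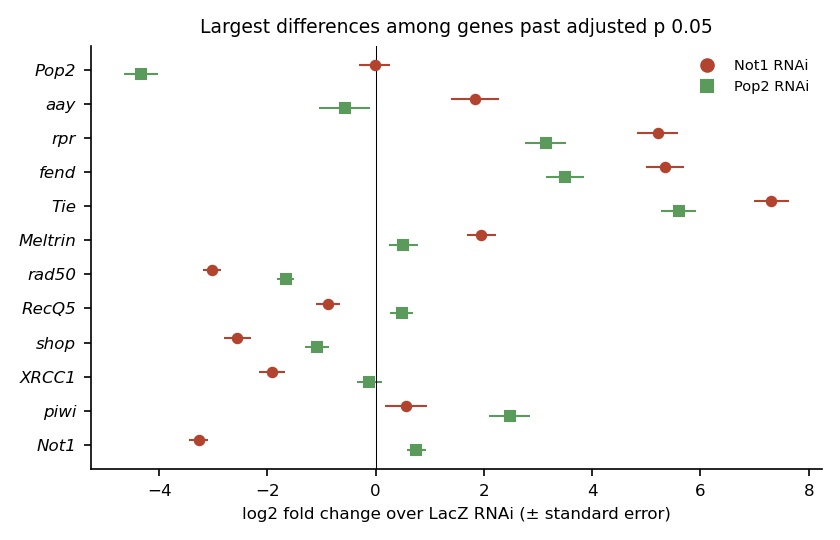
Log2 fold change against LacZ RNAi with its SE (horizontal axis) in Not1 RNAi (circles, upper of each pair) and Pop2 RNAi (squares). Shown are the 6 largest differences between both knockdowns in each direction, past an adjusted p of 0.05 and with a mean of at least 50. Genes with CG, CR, lncRNA or asRNA names were left out of these 12. XRCC1, rad50 and shop are further below 0 in Not1 RNAi, and rpr, Tie and fend further above it.

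Markers of cell types were measured in both groups. Of 18 hemocyte markers tested, 6 rose and 3 fell, against 25.7% and 24.2% of all genes (6 higher and 6 lower of 16, median -0.27 without libraries C). Their median log2 was -0.00327, and their summed level, most of it from srp and drpr, was 12319 normalized counts in Not1 RNAi and 8582 in LacZ RNAi. srp, the GATA factor of blood cells, was abundant in both (means of 5940.2 in Not1 RNAi and 4358 in LacZ RNAi, log2 0.45 ± 0.34, adjusted p = 0.278 by the authors' deposited table). drpr, a receptor for engulfment, rose 5.27-fold, and eater, a phagocytic receptor of the Nimrod family, fell 5.67-fold in the authors' deposited table. NimC2 and NimB4, also of that family, were under 1 normalized count in both groups. Of 12 epithelial markers 8 rose and 0 fell (8 higher and 0 lower of 11, median 0.78 without libraries C), with a summed level of 21254 in Not1 RNAi and 8690.4 in LacZ RNAi; shg, E-cadherin, rose 4.002-fold and grh, an epithelial transcription factor, had means of 2.18 in Not1 RNAi and 3.98 in LacZ RNAi in the authors' deposited table. The larval serum protein genes Lsp1alpha and Lsp2 and the fat body genes Fbp1 and Fbp2 were at 0 in both groups, and the muscle genes wupA and up were at or below 1. Other members of these lists were expressed. Of 9 muscle markers tested 1 rose and 0 fell (median 0.35; 1 higher and 0 lower of 4, median -0.16 without libraries C), with sums of 2221 in Not1 RNAi and 1288 in LacZ RNAi, and of 2 fat body markers 0 rose and 1 fell (0 higher and 2 lower of 2, median -1.39 without libraries C), with sums of 47.4 in Not1 RNAi and 139 in LacZ RNAi. Of 8 germline and gonad markers 2 rose and 2 fell, with a median log2 of -1.27 (3 higher and 2 lower of 5, median 0.44 without libraries C) and sums of 4783 in Not1 RNAi and 2684 in LacZ RNAi. Of 8 neuronal markers 1 rose and 1 fell, with a median of 0.36 (1 higher and 4 lower of 6, median -0.28 without libraries C) and sums of 1465 in Not1 RNAi and 1466 in LacZ RNAi. The part of marker genes in the other results was not tested.

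Levels in wild-type DL1 cells, from the knockout experiment and normalized separately, did not always match the controls. Means were 998 in Not1 RNAi, 163 in WT and 12.7 in LacZ RNAi for mew and 1185, 276 and 12.3 in the same order for wb, in the authors' deposited table. For form3 they were 1133, 333 and 26.4, and for sano 6627, 315 and 44.9. The 4 WT means lay between both RNAi groups. That order did not hold for every rising gene. WT means were below those of LacZ RNAi for dysc (89.2 against 143.6), hid (40.5 against 52.2) and fok (1229.7 against 1499.9). Tie had a WT mean of 59.6, NimA of 3.74 and sr of 15.7, well below their Not1 RNAi means of 1988, 512 and 474 in the authors' deposited table.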

How the data were processed

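The authors deposited, for each RNAi group, mean normalized counts per gene (a signal: DESeq2-scaled means), log2 fold changes with standard errors, and p-values with Benjamini-Hochberg adjustment from DESeq2. Per the submitters' processing notes, tools were fastp 0.14.1, HISAT2 2.1.0, UMI-tools 1.0.1, featureCounts and DESeq2 1.23.110 on dm6; no source used here gives strand use, so overlapping genes may share reads. Adjusted p-values are from the authors' two-sided Wald test in DESeq2, since the tables hold group means and not the counts first planned for. Gene lists, members and named genes were chosen with earlier results of these data known. Named are the 12 largest rises and falls with a LacZ RNAi mean of at least 50 and 8 near-silent genes (below 5). So are the 6 smallest p in each direction and 6 differences from Pop2 RNAi each way. Each list gave up to 6 members by smallest p. Except for list members, genes with CG, CR, lncRNA or asRNA names were left out of these choices. A choice by smallest p favours genes whose libraries are even and do not overlap between groups. Other genes named to describe a list were chosen after their values were seen. Whole reads of each library were recovered from the step sizes of the deposited means (99.0% of expressed genes in Not1 RNAi, 99.3% in LacZ RNAi; tested on simulated data), and limma 3.58.1 (voom, R 4.3.3) was run on genes with a mean of at least 5. Library letters do not map to replicate numbers. The 7 lines without a gene held 0.0311% of Not1 RNAi and 0.0470% of LacZ RNAi counts and were left out, and so were value columns not tied to these samples, 2 in the RNAi table and 13 in the knockout table. Tests used Python 3.11.15 with scipy 1.17.1. Depth bounds precision only through counting error, and of the 17555 genes 6307 were at 0 in both groups and 2960 had a p-value without adjustment.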

Additional observations from a re-analysis of the deposited data

How the results depend on the processing

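The count of 4522 changed genes stayed within 1.5 times at an adjusted p of 0.01, with a minimum mean of 20, with no filter, and in limma without libraries C (5512) or with quality weights (5426), both chosen after seeing the data, as was the direct comparison with Pop2 RNAi. It was 2959 with a 2-fold minimum, 2960 with that minimum after centring, and 2947 by limma with all libraries (1540 higher and 1407 lower). Leaving out 1 library gave 1816 to 3503 by limma, with 1816 and 1973 without Not1 RNAi A or B and 2086 and 2087 without LacZ RNAi A or B. Of 47 list medians 36 kept their sign under every alternative run (11, or 10 for antimicrobial peptides), and 11 changed it. The change went beyond the spread between libraries in 4 lists, under the alternatives given: PAN2-PAN3 (-0.47; 0.39 and 0.43 without Not1 RNAi A or B, 0.32 without LacZ RNAi A), decapping (-0.21; 0.24 by limma, 0.21, 0.23 and 0.21 without Not1 RNAi A, B or C, 0.27 without LacZ RNAi B), fatty acid genes (-0.08; 0.12 and 0.095 without LacZ RNAi A or B) and Pumilio targets (0.28; -0.16 without libraries C); the cause was not tested. With the main or the other value within that spread, the medians of BMP, CCR4-NOT, Notch, receptor tyrosine kinase, repressor, Toll and Imd and polyamine genes changed sign. Differences from Pop2 RNAi, 115 in all, were 63 at an adjusted p of 0.01, 433 by direct limma comparison and 2026 there without Not1 RNAi library C. Of named genes, no direction reversed; pum, aay and RecQ5 lost their call in some fits with 1 library left out (log2 of pum 0.65 without Not1 RNAi C), and piwi gained one without libraries C (0.63), as did Not11 and twin. No paired analysis was possible because the recovered libraries carry no replicate numbers. Depth limits single-library values of genes with few reads.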

Other observations

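Non-coding RNA genes and pseudogenes fell more often than they rose. Of 478 non-coding RNA genes tested 47 rose (9.83%) and 99 fell (20.7%), and of 53 pseudogenes 5 rose (9.43%) and 15 fell (28.3%), against 25.7% higher and 24.2% lower over all genes, so the share of non-coding RNA genes that fell was below that of all genes. Without libraries C, by limma, 15.7% of non-coding RNA genes were higher and 48.8% lower, and 14.3% of pseudogenes higher and 54.3% lower, against 36.5% and 35.6% of all genes. Of 77 genes on chromosome 4, a short and largely heterochromatic chromosome, 6 rose and 24 fell (median log2 -0.25). Without libraries C, 17.5% of them were higher and 52.4% lower by limma. On the X and the arms of chromosomes 2 and 3, 24.2% to 28.1% of genes rose.

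The counts that follow are set against 25.7% higher and 24.2% lower over all genes, or 36.5% and 35.6% by limma without libraries C. Of Notch pathway and response genes 6 rose and 3 fell of 19 tested (4 higher and 4 lower of 13, median -0.12 without libraries C), with fng, a glycosyltransferase that tunes the receptor, at 124, 103.6 and 156.5 in Not1 RNAi against 14.8, 16.4 and 6.51 in LacZ RNAi and the co-activator mam risen 5.77-fold in the authors' deposited table. Of BMP and activin genes 7 rose and 4 fell of 17 tested (7 higher and 7 lower of 17, median -0.08 without libraries C). The receptors tkv and put had 474, 453 and 593 in Not1 RNAi against 116, 124 and 75.9 in LacZ RNAi and 876, 818 and 815 in Not1 RNAi against 335, 339 and 204 in LacZ RNAi, without overlap, and the ligand gbb fell with 323, 409 and 568 in Not1 RNAi against 889.6, 891 and 939 in LacZ RNAi. Of Hippo pathway genes 6 rose and 2 fell of 17 tested (7 higher and 5 lower of 16, median 0.10 without libraries C), with the kinase hpo at 1811, 1706 and 1239.6 in Not1 RNAi against 508, 604 and 328 in LacZ RNAi. Of microtubule and kinesin genes 9 rose and 4 fell of 27 tested (11 higher and 5 lower of 24, median 0.32 without libraries C): Klp98A, a kinesin of endosomes, had 1099, 1059 and 3356 in Not1 RNAi against 322, 327 and 256 in LacZ RNAi, and cmet, the kinetochore kinesin CENP-E, 1227, 1406 and 795 in Not1 RNAi against 4209, 3516 and 1621 in LacZ RNAi.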
